A study of Mus musculus with 6 samples.

Results

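Matricellular proteins are secreted into the matrix between cells but, unlike collagen, do little to hold tissue together: they bind integrins and other receptors, growth factors and collagen, and so tune how cells attach, migrate and signal. In skin most are made by dermal fibroblasts, are kept low in resting tissue and are known for their part in wound repair and scarring. Several of their genes are textbook targets of transforming growth factor beta (TGF-beta) and of the mechanical pathways that act through YAP, TAZ and the serum response factor SRF. The set described here holds 10 genes, chosen by name with earlier results of these arrays in view: periostin (Postn), the tenascins Tnc and Tnn, osteopontin (Spp1), osteonectin (Sparc), the thrombospondins Thbs1 and Thbs2, Cyr61 (now Ccn1), Ctgf (now Ccn2) and the secreted protein Crispld2. They carried 13 of the 55681 probes that were not controls. Of the 10, 8 passed the filter on dim probes and stand among 24333 targets, a target being 1 gene or unnamed transcript.

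The RNA came from skin of male C57BL/6 mice aged 6 to 8 weeks, all shaved on the back. Exposure of 3 mice to ultraviolet B light (UVB) began 2 days after shaving, at 180 mJ/cm2 and 3 sessions a week for 2 weeks, under anaesthesia. The 3 control mice were kept dark and received no UVB, and neither anaesthesia nor sham handling is stated for them. How long after the last session the skin was taken is not stated in the sources used here. Each of the 6 samples was read on 1 Agilent 1-colour array, and 3 arrays a group limit the precision of every value below. Levels are log2 signal minus the array's own 75th percentile, so 0 marks that percentile, and a level of 1 probe cannot be set against that of another. A probe is called well above background as the scanner software marked it. Fold changes carry limma standard errors (SE).

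All 6 arrays lay on 1 slide with 1 scan. In the files' array positions the 3 control arrays and UVB array 1 shared a slide row, and UVB arrays 2 and 3 lay in the other row. The share of spots well above background ran from 54.9% to 63.3% over the arrays, with 0 saturated spots. Of the 8 skin markers listed, epidermal keratins and dermal collagens among them, all passed the filter. In whole skin, fewer cells of a type and less RNA per cell cannot be told apart.

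After UVB, 6 of the 8 measurable members stood lower and 2 higher. Crispld2 was 13.5-fold lower, Thbs2 5.19-fold, Thbs1 4.18-fold, Cyr61 2.88-fold, Postn 2.48-fold and Ctgf 2.33-fold, while Sparc was 1.86-fold and Tnc 1.48-fold higher. The arrays of the 2 groups did not overlap for the first 5 of these, nor for Sparc, but they did for Ctgf and Tnc. Because the members were picked with this contrast known, these differences describe the set and no test of them is given. For orientation, Crispld2, Thbs2, Thbs1, Cyr61 and Postn lay past the limma threshold used for all targets (adjusted p under 0.05), and all 5 were lower. The 5 were 3 (Crispld2, Postn and Thbs2) without control array 1, UVB array 1 or UVB array 2. Over all targets 7.02% were called lower and 5.54% higher. In either direction 12.6% were called, and nothing is read from the members' count. Groups lay apart in 38.5% of targets, with UVB lower in 22.6% and higher in 15.9%. The median log2 difference was -1.42 over the 8 members and -0.04 over all targets, and 6 of the 8 members were at least 2-fold lower, as were 3.32% of all targets (8.77% were at least 2-fold apart in either direction).

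Promoters are shown for 4 of the lower members and for Sparc, which stood higher, so that shared and differing letters can be seen. RefSeq promoter windows of build GRCm38.p6 matched 8 of the 10 members in 11 windows, since Postn, Tnc and Spp1 have 2 annotated starts. The 250 bases before each start are printed 5′ to 3′ on the gene's strand. Capitals mark matches on either strand to GGAATG (the core bound by TEAD factors, partners of YAP), CAGACA (a SMAD element), TGANTCA (AP-1), TATAAA and the CArG box bound by SRF.
Crispld2 (chr8:119992188-119992437, plus strand): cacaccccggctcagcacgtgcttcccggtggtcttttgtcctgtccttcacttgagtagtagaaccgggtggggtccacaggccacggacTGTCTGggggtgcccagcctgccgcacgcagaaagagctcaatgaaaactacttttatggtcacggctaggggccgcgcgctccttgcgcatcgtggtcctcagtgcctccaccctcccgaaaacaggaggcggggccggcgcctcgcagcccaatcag
Thbs2 (chr17:14694263-14694512, minus strand): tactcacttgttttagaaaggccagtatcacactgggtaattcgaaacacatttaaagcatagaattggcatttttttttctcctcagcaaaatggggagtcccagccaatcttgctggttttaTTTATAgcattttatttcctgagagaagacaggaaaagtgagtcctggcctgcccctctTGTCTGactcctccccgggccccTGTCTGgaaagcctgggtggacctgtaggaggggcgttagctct
Cyr61 (chr3:145649986-145650235, minus strand): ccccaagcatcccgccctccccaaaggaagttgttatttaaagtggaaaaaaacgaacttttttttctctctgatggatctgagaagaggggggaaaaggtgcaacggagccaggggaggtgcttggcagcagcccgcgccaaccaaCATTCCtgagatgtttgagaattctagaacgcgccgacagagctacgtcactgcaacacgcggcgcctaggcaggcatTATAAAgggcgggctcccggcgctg
Postn, second start (chr3:54360857-54361106, plus strand): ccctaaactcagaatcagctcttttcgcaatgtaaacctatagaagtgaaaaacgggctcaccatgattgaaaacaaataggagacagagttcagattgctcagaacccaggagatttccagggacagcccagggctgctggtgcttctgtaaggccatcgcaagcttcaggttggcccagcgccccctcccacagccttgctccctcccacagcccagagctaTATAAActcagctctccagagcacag
Sparc (chr11:55420081-55420330, minus strand): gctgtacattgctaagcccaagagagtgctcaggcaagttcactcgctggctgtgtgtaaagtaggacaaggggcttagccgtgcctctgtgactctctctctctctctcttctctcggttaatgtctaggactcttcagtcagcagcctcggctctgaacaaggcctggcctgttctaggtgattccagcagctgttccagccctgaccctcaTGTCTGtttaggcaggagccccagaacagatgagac
Of these motifs TATAAA lay just before the start of Cyr61 and of the second Postn start, at positions -25 to -20 and -26 to -21 counted back from the start. Thbs2 held TATAAA farther off, on the opposite strand at -126 to -121. Cyr61 also held GGAATG, on the opposite strand at -103 to -98. Thbs2 held CAGACA at -67 to -62 and at -44 to -39, and Crispld2 and Sparc held it once each, all on the opposite strand. Of 32841 windows of the same length over the genome, 12.4% held TATAAA, 12.6% GGAATG, 17.1% CAGACA, 6.8% TGANTCA and 1.5% a CArG box. The last 2 matched in 0 of the 11 member windows. A looser form of the CArG box, with any bases between its CC and its GG, matched in 67.1% of all windows and in 7 of the 11. The higher Sparc and the lower Crispld2 held the same kind of match, and a match says nothing of binding.

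**Figure D1:**
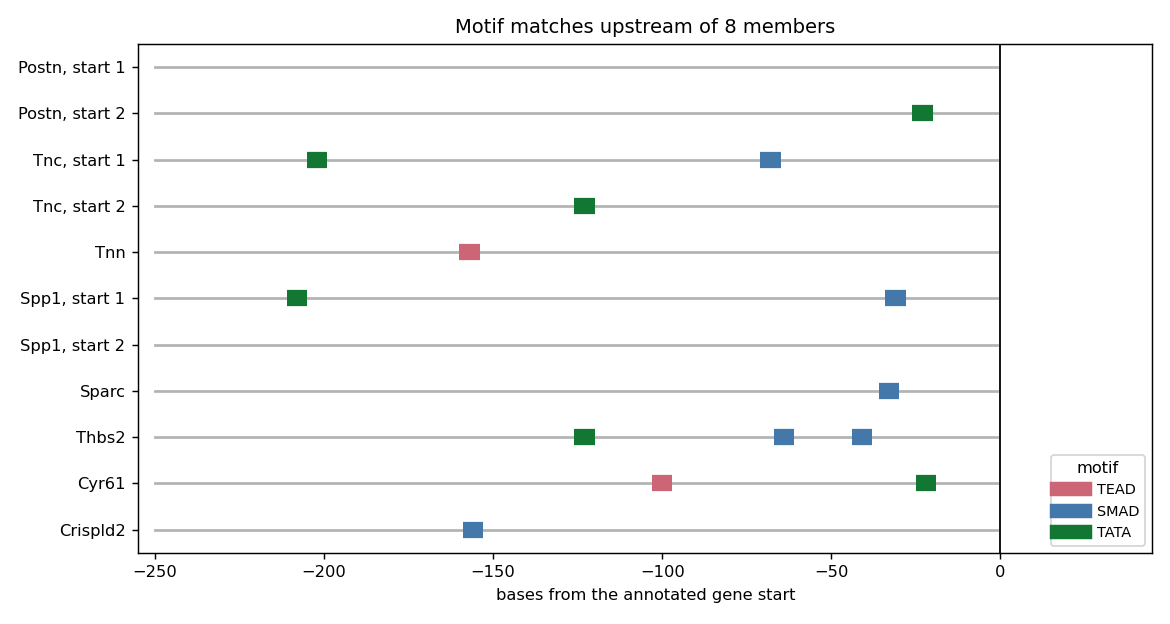
Matches to GGAATG (TEAD), CAGACA (SMAD) and TATAAA (the core of a promoter, shown as TATA) on either strand in the 250 bases before 11 annotated starts of 8 members (horizontal axis, bases from the start; 1 line per start). Thbs2 carries 2 SMAD matches near its start, Cyr61 carries a TEAD and a TATA match, and the first Postn start carries none of the 3 motifs.

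**Figure D2:**
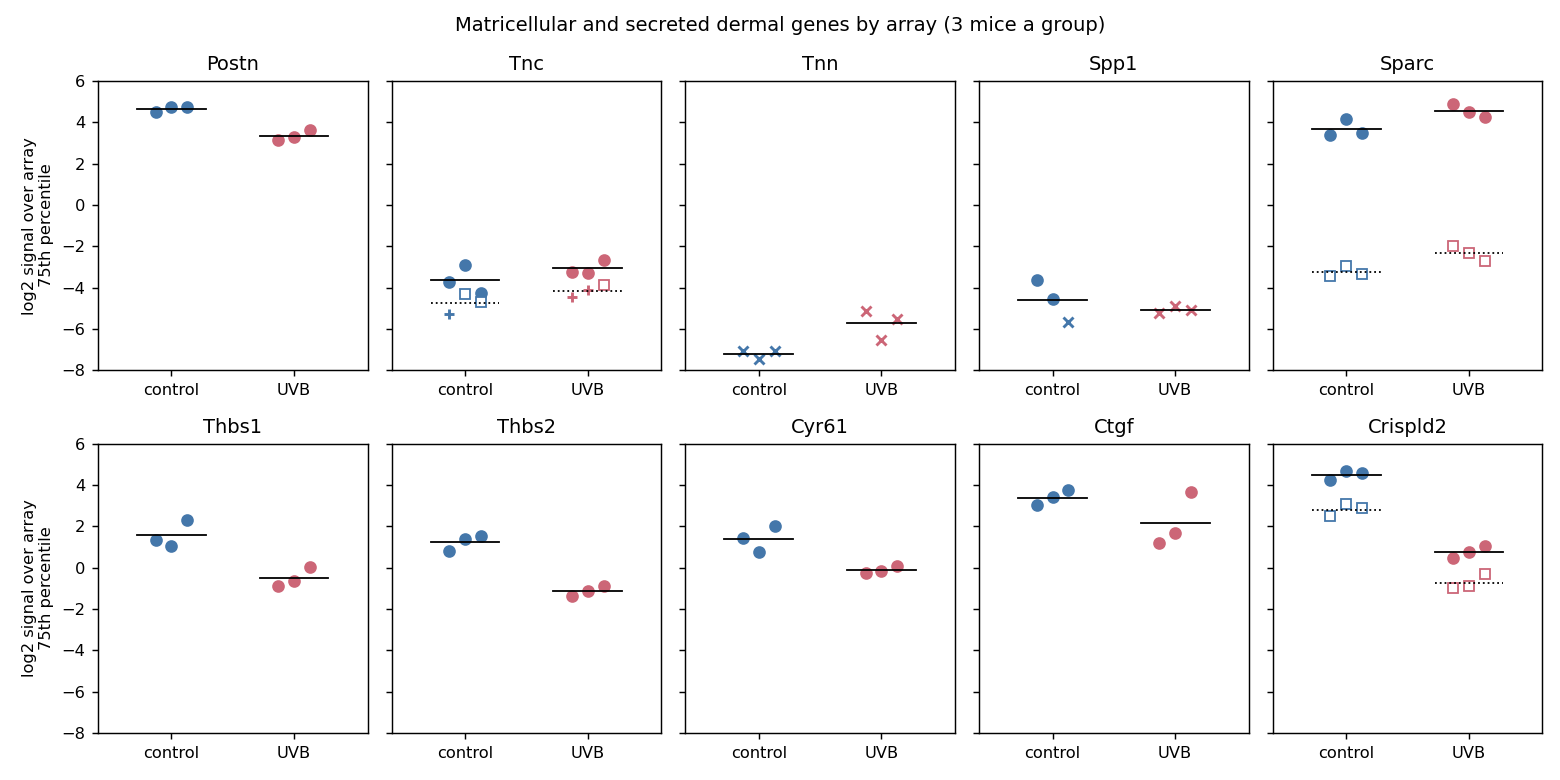
Level of each member by array, as log2 signal minus the array's 75th percentile (vertical axis), for 3 control and 3 UVB mice; filled circles are the probe that stands for the gene, open squares a further probe, crosses and plus signs values not well above background, and lines group means. The 3 UVB arrays of Crispld2 lie between 0.45 and 1.04, below all controls, while Ctgf has 1 UVB array at 3.68 among the controls and Tnn carries crosses on all 6 arrays.

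Crispld2, a secreted protein with a cysteine-rich CAP domain and LCCL domains, was the member farthest from its controls. Its brighter probe (chromosome 8, 122575417 to 122575476 in the mouse build mm9) read 4.24, 4.67 and 4.60 in control mice and 0.45, 0.78 and 1.04 after UVB. The lowest control thus stood 3.21 above the highest UVB array on the log2 scale, several times the spread inside either group (SD 0.23 and 0.29). The fitted log2 difference was -3.75 ± 0.20 (SE, n = 3 per group), and only 4 targets of all tested had a lower one. The other probe, starting at 122576633, read 2.48, 3.07 and 2.88 in controls and -0.97, -0.90 and -0.29 after UVB, a difference of -3.53 ± 0.24. Both probes therefore gave the same picture over different stretches of the transcript.

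The thrombospondins are large glycoproteins that bind CD47 and CD36 and restrain new vessel growth, and Thbs1 is also known as an activator of latent TGF-beta. Thbs2 (chromosome 17, 14804526 to 14805789) stood at 0.80, 1.39 and 1.53 in controls and at -1.37, -1.14 and -0.89 after UVB. No UVB array came within 1.69 of a control on the log2 scale. The difference was -2.37 ± 0.23, and -2.0 with normexp, a background correction whose offset shrinks differences between dim spots. The probe's 60 bases lie over 1264 bases of genome, so it crosses a splice junction. Thbs1 (chromosome 2, 117952585 to 117952644) varied more: controls read 1.35, 1.05 and 2.31, and UVB arrays -0.87, -0.64 and 0.04. The gap between the groups was 1.02, smaller than the 1.26 between the highest and lowest control. Its difference was -2.06 ± 0.39.

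Cyr61 and Ctgf are CCN proteins, integrin-binding proteins whose genes serve as standard readouts of YAP and TAZ activity. Cyr61 (chromosome 3, 145310187 to 145310246) read 1.43, 0.78 and 2.00 in controls and -0.27, -0.17 and 0.07 after UVB. The UVB arrays lay within 0.34 of each other, while controls spread over 1.21. The difference was -1.53 ± 0.31. Ctgf (chromosome 10, 24318281 to 24318340) read 3.01, 3.40 and 3.77 in controls but 1.19, 1.66 and 3.68 after UVB. UVB arrays 1 and 2 lay below every control, and UVB array 3 stood level with the highest. The difference of -1.22 ± 0.64 was -1.97 ± 0.27 without UVB array 3 and -0.72 ± 0.62 without UVB array 1, so its size turns on single mice. The spread of Ctgf over UVB mice (SD 1.33) was larger than that of 98.8% of targets. Both CCN genes ranked the UVB arrays alike, with array 1 the lowest and array 3 the highest, but only for Ctgf did array 3 reach the controls.

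Postn, a fasciclin-domain protein that binds collagen and integrins and supports collagen crosslinking, was bright on all arrays. Its probe (chromosome 3, 54194840 to 54194899) read 4.50, 4.76 and 4.75 in controls and 3.16, 3.28 and 3.62 after UVB. It was the steadiest member in controls, with an SD of 0.15 against a median of 0.18 over all targets, and its difference was -1.31 ± 0.16. Sparc, a collagen-binding glycoprotein needed for normal collagen fibrils, went the other way. The brighter probe (chromosome 11, 55208939 to 55208998) read 3.38, 4.14 and 3.48 in controls and 4.91, 4.49 and 4.27 after UVB. The groups lay only 0.14 apart, less than the 0.75 between control mice, and the difference was 0.89 ± 0.26. A second, much dimmer probe starting at 55208003 gave 0.90 ± 0.23, with controls at -3.43, -2.97 and -3.33 and UVB arrays at -1.99, -2.32 and -2.73.

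The tenascins and osteopontin were dim. Tnc, a large hexameric protein induced at wound edges, read -3.73, -2.92 and -4.28 in controls and -3.26, -3.29 and -2.67 after UVB on the probe at chromosome 4, 63674248 to 63675011. Its groups overlapped, with a difference of 0.57 ± 0.37 that ran from 0.25 without control array 3 to 0.93 without control array 2. The other Tnc probe, starting at 63643728, was well above background on 2 control arrays and 1 UVB array and gave 0.62 ± 0.28. Tnn, also called tenascin-W, was well above background on 0 of 6 arrays. Spp1, a phosphoprotein that binds integrins and CD44, was well above background on 2 of 3 control arrays and on 0 of 3 UVB arrays. Its measured difference was -0.45, and 0.21 with normexp. The control arrays alone spread from -5.69 to -3.62, so no difference was detectable for Spp1 and none is given for Tnn.

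The scaled differences can be set beside the unscaled processed intensity, rounded to 3 digits. For Crispld2 it was 6870, 13200 and 11800 in controls and 480, 538 and 618 after UVB, and for Postn 8200, 14000 and 13000 against 3150, 3070 and 3700. Thbs2 read 633, 1360 and 1400 against 136, 142 and 163. Control array 1 was the dimmest control for all 3 genes, and the 75th percentile used for scaling was 363 on that array against 519 and 484 on the other controls. The percentile of the UVB arrays was 352, 315 and 302. The intensity of Spp1 was between 8.84 and 29.4 and that of Tnn between 2.66 and 10.1, which shows how near the floor these probes lay.

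Since the slide rows did not hold both groups equally, the members were also read inside the row that holds both, with 3 control arrays and UVB array 1 alone. There the differences were -4.06 for Crispld2, -2.61 for Thbs2, -2.44 for Thbs1, -2.21 for Ctgf, -1.68 for Cyr61, -1.50 for Postn, 0.38 for Tnc and 1.25 for Sparc. All 8 kept their direction, and all but Tnc lay farther from 0 than over the 6 arrays. UVB array 1 was also the lowest UVB array for 6 of the 8 members and the highest for Sparc. With 1 UVB array in the row, its position and its mouse cannot be told apart. A fit with the row as a block gives the same differences, because the other row holds UVB arrays only.

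**Figure D3:**
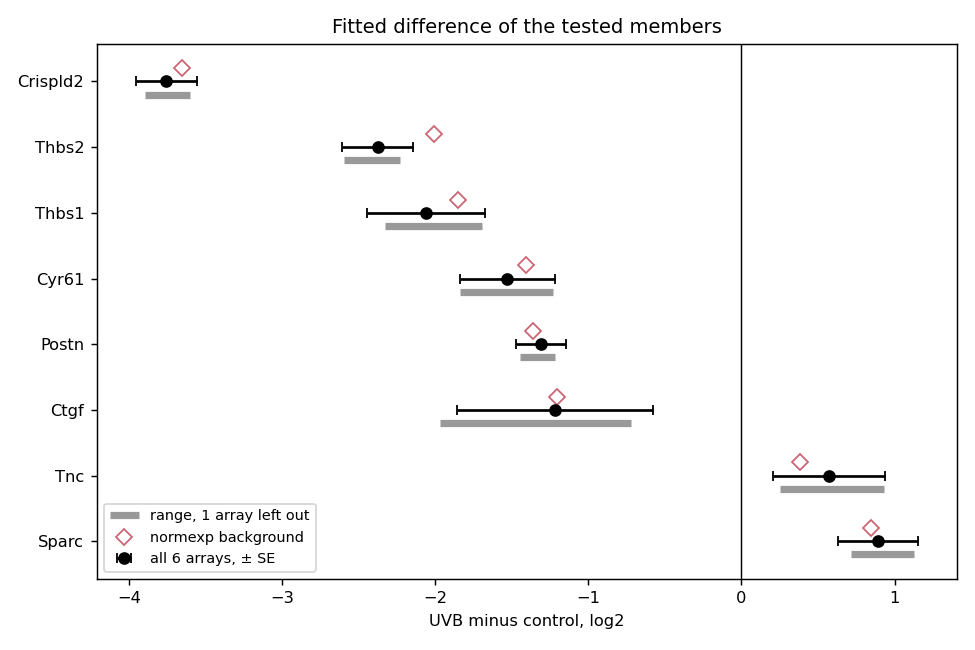
Fitted UVB minus control difference of the 8 tested members (horizontal axis, log2); black points and bars show all 6 arrays ± SE, grey bars the range with 1 array left out, and open diamonds the normexp background correction. Crispld2 lies farthest from 0 at -3.75, Ctgf has the widest range with 1 array left out, from -1.97 to -0.72, and Sparc and Tnc lie above 0.

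The order of mice inside a group was alike for many members. Among UVB arrays, array 3 was the highest for 7 of the 8 members, Sparc being the exception, and array 1 the lowest for 6. Over all targets array 3 was the highest UVB array in 32.0% of cases and array 1 the lowest in 31.0%. Among controls, array 1 was the lowest for 5 members and the highest for 0. Over all targets it was the lowest control in 32.4% of cases and the highest in 43.0%. The controls with the widest spread were Tnc, Thbs1 and Cyr61, with SDs of 0.68, 0.66 and 0.61, larger than those of 94.6%, 94.2% and 92.8% of targets. Thbs1 and Cyr61 both peaked on control array 3 and were lowest on control array 2, while Tnc did the opposite. With 3 mice a group these orders are a description only.

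**Figure D4:**
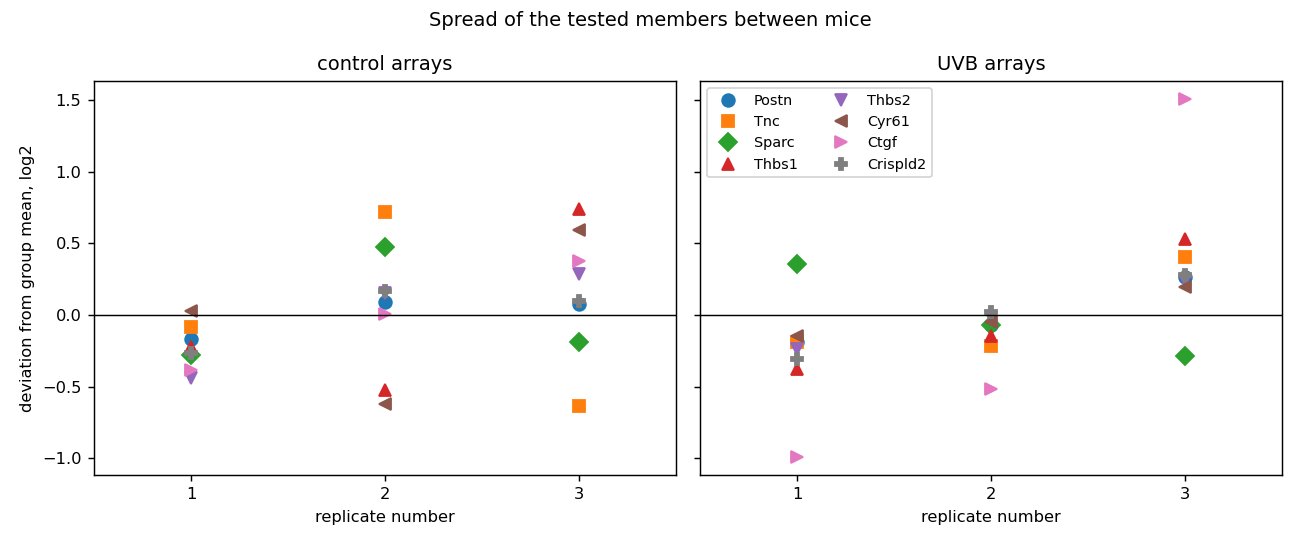
Deviation of each tested member from its own group's mean (vertical axis, log2) on control arrays (left) and UVB arrays (right), by replicate number. On UVB array 3 all members but Sparc lie above their mean, Ctgf by 1.51, and on control array 2 Thbs1 and Cyr61 lie below theirs by over 0.5.

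The other genes were read from lists of related genes, and each count can be read against the 12.6% of all targets called in either direction. The first list held 26 further matricellular and related secreted genes, of which 15 were tested: 3 rose, 3 fell and 9 did not pass, with a median log2 difference of 0.29. Smoc2, a relative of Sparc, stood at 5.35, 5.29 and 5.66 in controls and 3.55, 3.65 and 4.01 after UVB, a change of -1.69 ± 0.18 (limma adjusted p = 0.00479). Tnxb, the tenascin of the normal dermis whose loss causes a form of Ehlers-Danlos syndrome, changed by -1.92 ± 0.24 (limma adjusted p = 0.00746). In the other direction Fbln2, a fibulin of elastic fibres and basement membranes, rose by 2.02 ± 0.26 and Pi15, a CAP-domain relative of Crispld2, by 3.03 ± 0.36 (limma adjusted p = 0.00831 and 0.00680). Pi15 was well above background on 1 control array, and its difference was 1.34 with normexp. In these pairs the directions differed: Sparc stood higher and Smoc2 fell, while Crispld2 stood lower and Pi15 rose. The pairs follow from naming the genes of smallest p. Also in the list, Sparcl1 was at 1.55 ± 0.92, the direction of Sparc, and Smoc1 at -0.72 ± 0.61, and neither passed.

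Of the 21 receptors listed, 19 were tested, 2 rose, 2 fell and 15 did not pass, with a median of 0.16. Stab1, a scavenger receptor that takes up Sparc, rose from -1.78, -1.37 and -1.68 to 1.77, 1.30 and 0.90, or by 2.93 ± 0.24 (limma adjusted p = 0.00321). The integrin subunit Itgb8, which helps activate TGF-beta, rose by 0.93 ± 0.17, while Itga2 and Itga4 changed by -1.12 ± 0.22 and -1.15 ± 0.25 (limma adjusted p = 0.0228, 0.0252 and 0.0361). These 3 passed with 1 of 6 arrays left out in only 1 case each, and with normexp Itga2 and Itga4 were at -0.15 and -0.26 and did not pass. With any 1 array left out the list's count was between 1 and 3. The osteopontin receptors Itgav (0.22 ± 0.12) and Cd44 (0.20 ± 0.12) did not pass (limma adjusted p = 0.261 and 0.282).

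Several collagen genes, whose products many of these proteins bind, stood opposite to the members that were lower. Not all did: Col5a2 was at -0.03 ± 0.28 and Col5a3 at 0.87 ± 0.43, both with overlapping groups, and neither passed. Of 24 genes of collagen fibrils and their partners, 21 were tested, 6 rose, 0 fell and 15 did not pass, with a median of 0.60. At unadjusted p under 0.05, limma put 9 of the 21 past it, as it did 31.5% of all targets. Col1a1, the main chain of dermal collagen, stood at -0.50, 0.43 and -1.32 in controls and 2.36, 1.51 and 1.79 after UVB, a rise of 2.35 ± 0.46 (limma adjusted p = 0.0261). Col1a2 (1.70 ± 0.37), Col5a1 (1.37 ± 0.30) and Col12a1 (0.97 ± 0.17) rose with it, as did Col3a1 and the collagen chaperone gene Serpinh1 (limma adjusted p from 0.0209 to 0.0483 over these 5). The count of 6 was 0 without control array 1 or UVB array 1 and 1 without control array 3, UVB array 2 or UVB array 3. Fibronectin (Fn1), which binds several members, was at -0.28 ± 0.44 (limma adjusted p = 0.698) and missed the threshold, and was at 0.04 without control array 2.

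Genes of TGF-beta signalling were divided: of 19 tested, 3 rose, 4 fell and 12 did not pass, with a median of -0.25. The ligand gene Tgfb1 changed by -0.96 ± 0.16 and the co-receptor gene Tgfbr3 by -1.16 ± 0.13 (limma adjusted p = 0.0159 and 0.00601). Lrrc32, which holds latent TGF-beta at the cell surface, rose by 1.30 ± 0.19 (limma adjusted p = 0.0129). Tgfb1 and Lrrc32 did not pass without control array 2 or UVB array 1, and 2 genes of the list passed in each of those fits, as did 4 without control array 1.

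Of 24 genes of the YAP, TAZ and SRF pathways 23 were tested, 0 rose, 4 fell and 19 did not pass, with a median of 0.00. With normexp the split was 4 higher and 4 lower. At unadjusted p under 0.05, limma put 9 of the 23 past it, again beside 31.5% of all targets. The 4 that fell were Srf itself (-0.67 ± 0.16), the receptor gene Axl (-0.70 ± 0.13), and Ajuba (-0.60 ± 0.14) and Sav1 (-0.46 ± 0.10), which encode a scaffold and an adaptor of the Hippo pathway (limma adjusted p = 0.0410, 0.0254, 0.0442 and 0.0388). Srf, Ajuba and Sav1 passed with no single array left out and Axl with 1 of 6. Without control array 1, control array 3, UVB array 1 or UVB array 3 the count was 0. Without control array 2 it was 1 higher and 0 lower, and without UVB array 2 it was 2 higher and 1 lower, so the calls there were not all lower. Yap1 and Wwtr1, which encodes TAZ, lay at -0.23 ± 0.12 and -0.12 ± 0.18. Acta2, the smooth muscle actin of myofibroblasts and an SRF target, was at 1.28 ± 0.34 with groups that did not overlap. It missed the threshold (limma adjusted p = 0.0579). Tagln (0.76 ± 0.21), Myl9 (0.92 ± 0.24) and Cnn1 (0.82 ± 0.28), in the same list, also stood higher and missed the threshold. Cnn1 was well above background on 1 control array, and Vcl was at -0.12 ± 0.18. Ankrd1, another YAP target, did not pass the filter on dim probes.

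**Figure D5:**
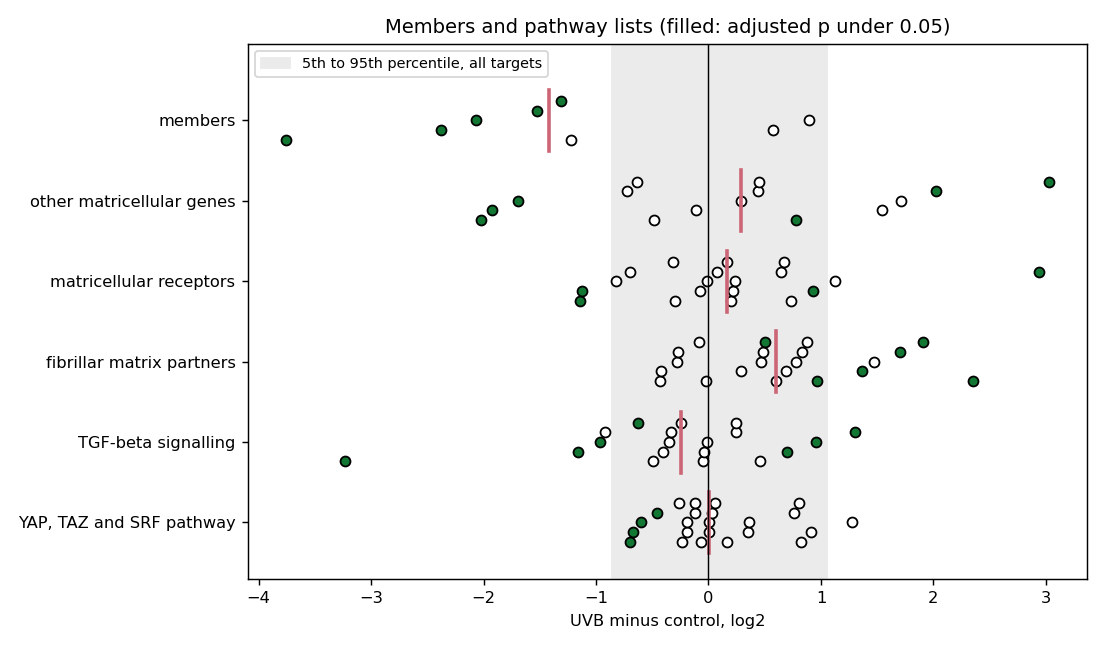
UVB minus control difference (horizontal axis, log2) of each tested gene among the members and 5 related lists; filled points have a limma adjusted p under 0.05, red bars are list medians and the grey band spans the 5th to 95th percentile of all targets (-0.86 to 1.05). The member median is -1.42, and the fibrillar matrix list has 6 filled points, all above 0.

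Markers of cell types moved beside these values, and their part in them was not tested. Of 12 fibroblast markers tested, 6 rose and 1 fell, with a median of 1.22: Crabp1, Twist2, Dpp4 and the collagens rose, while Thy1 changed by -1.85 ± 0.12 (limma adjusted p = 0.00233). The summed signal of that list, which its brightest genes set, ran from 43.8 to 50.9 times the 75th percentile in controls. After UVB it ran from 31.7 to 41.3, against the median. Its largest term in controls was Thy1, at 4.96, 4.89 and 4.91 against 2.95, 3.24 and 3.03 after UVB. The lower sum thus goes with this 1 gene and does not show that the others fell. The fibroblast markers Pdgfra and Pdgfrb did not pass the filter. Of 9 macrophage markers tested, 1 rose and 2 fell, with a median of 0.45. Adgre1 changed by -1.88 ± 0.11 and Csf1r by -1.52 ± 0.17 (limma adjusted p = 0.00178 and 0.00603). Lyz2 rose by 1.47 ± 0.34 (limma adjusted p = 0.0421) and was well above background on 1 control array. The list's sum, against its median, went from between 26.9 and 29.1 in controls to between 17.8 and 24.6 after UVB. Its largest term in controls was Csf1r, at 4.25, 4.2 and 4.12 against 2.71, 2.95 and 2.36 after UVB. The lower sum does not show that the other macrophage markers fell. Of 5 endothelial and 6 smooth muscle and pericyte markers tested, 0 passed (limma adjusted p), and 0 and 4 had an unadjusted limma p under 0.05. The endothelial sums were 9.14 to 10.6 in controls against 11.4 to 14.1 after UVB, with Kdr the largest term. The smooth muscle and pericyte sums were 47.1 to 56.7 against 50.3 to 60.4, with Mcam the largest term. Of 7 dermal papilla markers tested 1 passed, Rspo3, which fell. Hair matrix and sheath genes summed to between 19.3 and 21.9 in controls and to 606, 309 and 1288 on UVB arrays 1 to 3, with 10 of 13 higher. Adipocyte markers summed to between 6.62 and 9.35 in controls and to 11.8, 8.09 and 30.5 on UVB arrays 1 to 3. Of 6 tested, Fabp4 rose and 3 fell, with a median of -1.12, so the higher sums of UVB arrays 1 and 3 went against the median.

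The 5 named genes whose profile over the 6 arrays came closest to that of Crispld2, by root mean square difference of mean-centred log2 levels among 15916 named genes, were Adgre4, Adgrv1, Defb35, Ccdc27 and Immp2l. After UVB, Ccdc27 was well above background on 1 array and the other 4 genes on 0, so the likeness rests on the control arrays and on UVB values at background, and no order among the 5 is given. Immp2l, which encodes a mitochondrial peptidase, stood at least 7.96-fold lower and the adhesion receptor gene Adgrv1 at least 11.4-fold lower after UVB. Crispld2 itself was well above background on all 6 arrays.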

How the data were processed

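Agilent Feature Extraction 10.7.1.1 turned the scans into spot intensity, per the file headers, with background subtraction, detrending and surrogate values for dim spots, which leave the processed intensity unscaled between arrays. The authors also deposited a table of log2 values with the same distribution in every column (median 4.95, differences up to 0.002 after sorting). Its scaling is not stated in the sources used here, and it served as an alternative.

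Log2 processed intensity minus each array's 75th percentile was used, without control spots and outlier spots. A probe was tested when well above background on at least 3 arrays, and the brightest tested probe stood for a gene. Names came from RefSeq accessions for 26582 of 55681 probes, from symbols for 3094 and from the files for 26005. UVB was compared with control over all 24333 targets by lmFit and eBayes of limma 3.58.1 under R 4.3.3 (a two-sided test, with an adjusted p under 0.05 by Benjamini and Hochberg), with no covariate. Alternatives were quantile and median scaling, other filters on dim probes, normexp (offset 50), the deposited log2 values, the mean of a gene's probes, trend and robust eBayes, the replicate block, each array left out and slide row 1 alone. Each sample is taken as 1 mouse, as the labels give 3 mice a group. Groups and replicate numbers came from the sample titles, since the descriptions number all 6 arrays alike.

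The members and lists were chosen with earlier results of these data known. Named in each list were the 4 genes of smallest p among those that passed with groups apart, and Col1a1, Fn1, Tgfb1, Acta2, Itgav, Cd44 and Ankrd1. One gene that the rule names is not reported here. Sparcl1, Smoc1, Col3a1, Col5a2, Col5a3, Serpinh1, Yap1, Wwtr1, Tagln, Myl9, Cnn1, Vcl and the markers were added after their values were seen. The steps were tested on simulated data for the UVB comparison, with 200 of 24333 targets changed by 2-fold or 4-fold. There 39.6% of 2-fold and 80.8% of 4-fold changes were recovered and 8 unchanged targets were called. Far fewer targets changed there than were called in the data, so these rates need not hold for the data. A difference given as "at least" sets the brighter group's mean against the mean, over the dim group's arrays, of the higher of the probe's signal and the lowest signal well above background.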

Additional observations from a re-analysis of the deposited data

How the results depend on the processing

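All 8 tested members kept their direction under all 16 alternatives, but not all of these could change it. The replicate block and trend and robust eBayes alter only the SE. Under the other filters the same probes stood for the members, and the mean of a gene's probes changes nothing for members with 1 probe. With normexp Thbs2 moved from -2.37 to -2.0. The number past the threshold used for all targets was 3 to 5 of 8 with 1 array left out, and 4 with the replicate block: without control replicate 1, UVB replicate 1 or UVB replicate 2 it was 3 (Crispld2, Postn and Thbs2). Cyr61 did not pass without UVB replicate 3, where Ctgf did. With normexp or with trend and robust eBayes Sparc passed too.

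Targets called, 3057 in all, were 5035 with normexp and 865 to 1907 with any 1 array left out. With normexp the median difference of all targets moved from -0.04 to 0.08, and with median scaling to -0.14. With 1 array left out, list counts ranged from 4 to 6 (other matricellular), 1 to 3 (receptors), 0 to 4 (fibrillar matrix), 2 to 7 (TGF-beta) and 0 to 3 (YAP, TAZ and SRF). With a filter on all 6 arrays 7 receptor and 7 YAP, TAZ and SRF genes passed, as with trend and robust eBayes; without a filter 2 fibrillar and 1 YAP, TAZ and SRF gene passed, and with normexp 8 of the last list. The cause of these shifts was not tested.

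Same-numbered arrays deviated apart over all targets (correlations -0.26 to -0.08), which cannot show whether the numbers pair mice. The replicate block raised the SE of Tnc and Sparc and lowered that of the other members, as for Thbs1 from 0.39 to 0.18. With the replicate block 782 targets passed, and 3, 1, 0, 4 and 0 genes of the 5 lists in the order above (at unadjusted p under 0.05 in limma, 10 fibrillar genes, 9 YAP, TAZ and SRF genes and 6247 of the 24333 targets). Added after seeing the data, slide row 1 alone (3 control arrays, 1 UVB array, assumed to vary like the controls) gave 325 targets and 2, 2, 0, 1 and 0 list genes (at unadjusted p, 8 fibrillar genes, 4 YAP, TAZ and SRF genes and 5007 targets). There 1 member passed, Crispld2 at -4.06, and Ctgf was at -2.21. Dim spots limit Tnn, Spp1 and Tnc.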
